A study of Arabidopsis thaliana with 8 samples.

Results

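In dark-grown Arabidopsis seedlings, transcript levels were compared directly between the DAYi library labelled DEX and the library titled bri1-116. DAYi plants carry a dexamethasone (DEX)-inducible RNAi construct against DAY, a gene for a chaperone-like protein, in the Col-0 background. The bri1-116 plants carry a null allele of BRI1, the receptor kinase for brassinosteroids (BRs). The members are 20813 genes of 26987 entries: those with a single locus, above 0 in both libraries, whose baseline, the ratio of dark DAYi EtOH to dark Col-0, was within 2-fold with both controls above 0.

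Whole seedlings were grown for 5 days in the dark on medium with sucrose, DAYi with either 1 µM DEX or its solvent ethanol (EtOH), and bri1-116 and Col-0 as mock (EtOH) by their labels. Each condition was 1 library, so no value below has a replicate error or a test, and the differences are differences between libraries. Values are FPKM (fragments per kilobase of transcript, scaled to the number of mapped fragments), and "higher" and "lower" are used of an FPKM ratio beyond 2-fold, always for the library labelled DEX relative to that titled bri1-116. Where a pair of values is joined by "against", the first is from the library labelled DEX and the second from that titled bri1-116. The libraries came from 2 tables whose scaling together is not known, which is why the ratio of the control libraries is given as a baseline. Genotype, DEX and table cannot be told apart in a direct ratio, since DEX was given to DAYi plants alone. In whole seedlings, more cells of a type and more RNA per cell cannot be told apart either. The numbers 3 and 25 in the titles of the EtOH and DEX libraries are not explained by the labels.

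DAY itself (AT3G51140, chr3:18997600-18999904 in the coordinates of the files, build TAIR10) went against the label: it was 34.8 FPKM in the library labelled DEX and 32.8 in that titled bri1-116, beside 13.4 in EtOH and 13.8 in Col-0. The FPKM of the RNAi target was thus not lower in the library labelled DEX, and it differed there from that in the library titled bri1-116 by 1.06-fold. Whether reads from the RNAi construct add to this value was not tested. In the paper, RT-qPCR and immunoblots of light-grown DAYi seedlings showed less DAY transcript and protein with DEX. BRI1 was 43.0 FPKM in the library labelled DEX and 42.5 in that titled bri1-116, beside 68.0 in EtOH and 70.6 in Col-0, which checks nothing, since a null allele can still be transcribed. The labels of the bri1-116 and Col-0 libraries also conflict, with the title and the genotype field naming opposite lines, and the titles were followed here. Among single-locus genes above 0 in both libraries of a pair, 4.40% differed beyond 2-fold between EtOH and the library titled Col-0, and 22.1% between EtOH and the library titled bri1-116.

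BRs are steroid hormones that bind BRI1 at the cell surface and act through the transcription factors BZR1 and BES1 on genes of cell elongation. Together with the PIF factors, this pathway also keeps photosynthesis genes low before light is perceived, and plants without BRs or their receptor are dwarfed and partly light-like in the dark. Protochlorophyllide oxidoreductases (PORs) hold the pigment in the etioplast and make chlorophyllide once light arrives.

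Of the 20813 genes, 2460 (11.8%) were higher and 3174 (15.3%) were lower in the library labelled DEX. The median log2((FPKM + 1)/(FPKM + 1)) over all of them was 0.06. Beyond 4-fold, 567 genes (2.72%) were higher and 1074 (5.16%) were lower, and beyond 8-fold 176 (0.846%) and 414 (1.99%). The 2-fold shares of 11.8% and 15.3% are the background for every count of list members below, and some of those counts lay near them. For comparison, the baseline itself was beyond 2-fold upward for 484 (2.19%) and downward for 489 (2.21%) of 22102 genes, and the direct ratios spread more widely than the baseline. With the bri1-116 and Col-0 labels exchanged, as the genotype field has them, 1426 genes would be higher and 1279 lower. The baseline rule was then applied anew, with the library titled bri1-116 as the control, so these counts are not out of the 20813 genes.

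**Figure D1:**
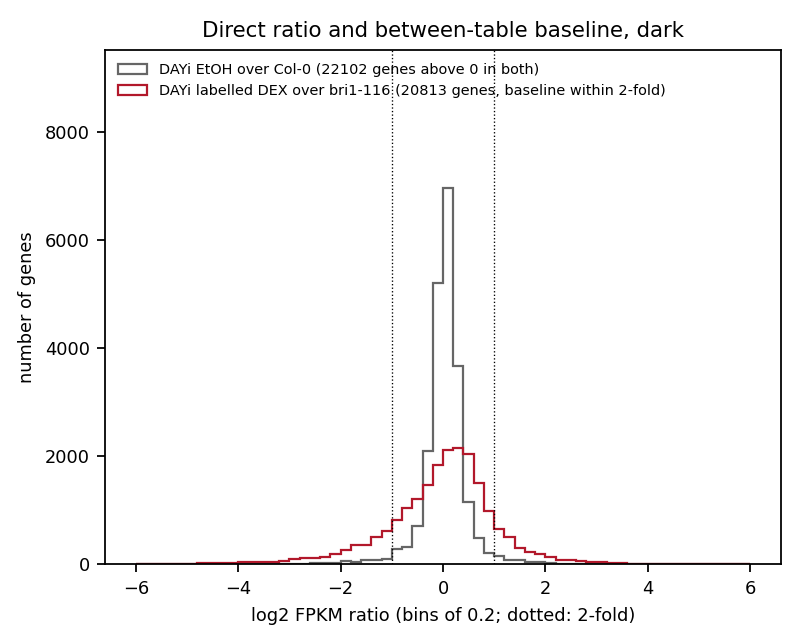
Number of genes (y axis) by log2 FPKM ratio (x axis, bins of 0.2) for the direct ratio of the DAYi library labelled DEX to bri1-116 (red, 20813 genes) and for the baseline of DAYi EtOH to Col-0 (grey, 22102 genes), with 1 library per condition and dotted lines at 2-fold. The baseline was narrow around 0, whereas the direct ratio had broad flanks on both sides, longer on the lower side.

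The library that had moved from its own control differed between genes. Of the 3174 lower genes, 869 differed beyond 2-fold from the own control only in the library labelled DEX (against EtOH), 922 only in that titled bri1-116 (against Col-0), 354 in both and in opposite directions, 184 in both in the same direction, and 845 in neither. Of the 2460 higher genes, these counts were 815, 465, 119, 239 and 822. In contrast, 1234 of all members were beyond 2-fold from the own control in the same direction in both libraries, and 811 of these lay within 2-fold of each other in the direct ratio. The rule that the baseline lies within 2-fold ties these counts to the direct ratio, and they are given as a description.

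**Figure D2:**
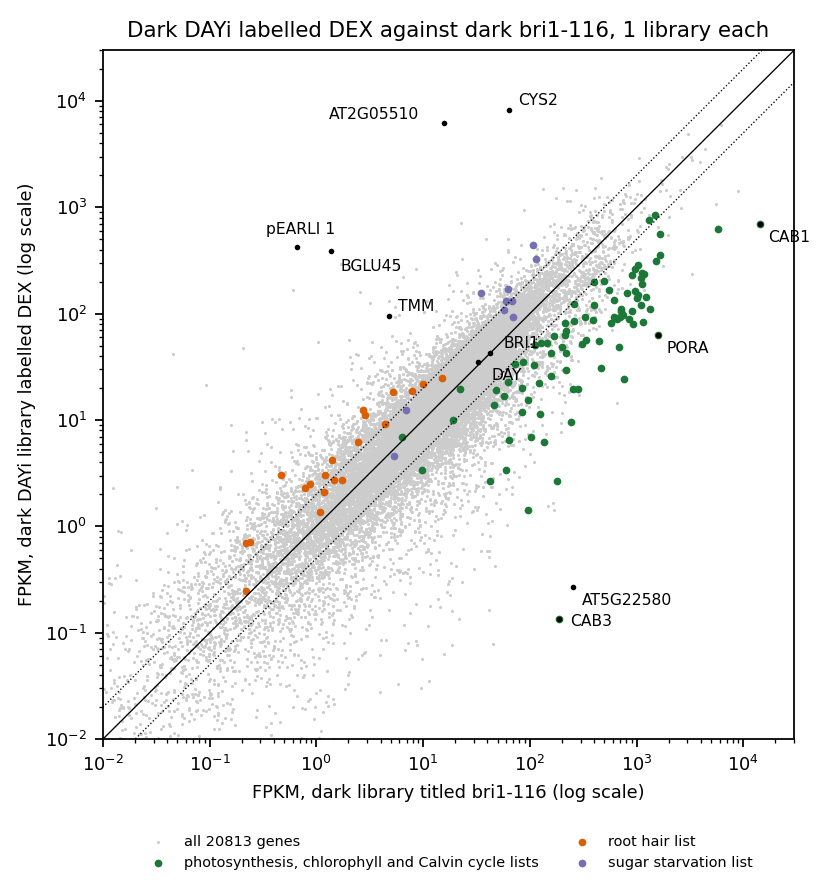
FPKM in the library labelled DEX (y axis) against FPKM in the library titled bri1-116 (x axis), both on log scales, for the 20813 genes (grey, genes under 0.01 FPKM lie outside the axes). Green, orange and violet points are the lists for photosynthesis, root hairs and sugar starvation; the solid line marks equal levels and the dotted lines 2-fold. Most green points lay below the lines and most orange points above, while DAY and BRI1 lay on the line of equality.

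The clearest group was the photosynthesis genes of the nucleus. Of 91 genes listed for the light-harvesting antenna, the photosystems and electron transport, chlorophyll synthesis and the Calvin cycle, 87 met the baseline rule, 82 of them were lower and none was higher, against 15.3% and 11.8% of all genes. Their median log2 ratio was -2.43. The counts against the own controls were as follows: 75 of the 87 lay below EtOH in the library labelled DEX and above Col-0 in that titled bri1-116. Beyond 2-fold, 68 were above Col-0 in bri1-116, and 33 were below EtOH in the library labelled DEX. Over all genes, 4692 of 20813 lay below EtOH and above Col-0, 2069 were above Col-0 beyond 2-fold in bri1-116, and 2450 were below EtOH beyond 2-fold in the library labelled DEX. With the bri1-116 and Col-0 labels exchanged, the baseline rule was applied anew, with the library titled bri1-116 as the control beside EtOH. Members that differed beyond 2-fold between those libraries were left out. Over the members that remained, the list medians would be 0.0128 for the antenna, -1.21 for the photosystems, -0.27 for chlorophyll synthesis and -0.21 for the Calvin cycle. Of these 4 medians, 3 would lie within 2-fold, but they are not over the 87 genes above.

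In the antenna, which binds chlorophyll and passes light energy to the reaction centres, 16 of 17 members under the rule were lower, with a median log2 ratio of -3.50. CAB1, the most abundant, was 692 FPKM in the library labelled DEX and 14221 in that titled bri1-116, beside 2287 in EtOH and 2534 in Col-0, that is 20.5-fold lower. LHCB3 of the photosystem II antenna was 24.6 against 769.7 FPKM, with 132 in EtOH and 192 in Col-0. CAB3 was 0.135 FPKM in the library labelled DEX, 187 in bri1-116, 22.3 in EtOH and 44.0 in Col-0, with a baseline ratio of 0.506, close to the limit. The member LHCB4.3 alone was not lower, at 6.95 against 6.31 FPKM. CAB2, LHCB2.2, LHB1B1 and LHB1B2 failed the baseline rule, with baseline ratios of 0.346, 0.475, 0.0779 and 0.250. CAB1, CAB2 and CAB3 are near-identical copies, as are the LHCB2 genes and the LHB1B pair, so their separate values are uncertain, and the sum over the 21 listed antenna entries was 1894 FPKM in the library labelled DEX, 24669 in bri1-116, 5535 in EtOH and 7651 in Col-0.

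All 29 listed genes of the photosystems and electron transport were lower, between a log2 ratio of -3.87 and -1.26. The NPQ4 gene encodes PsbS, the sensor of energy quenching, and was 31.1 FPKM in the library labelled DEX and 466 in that titled bri1-116, beside 137 in EtOH and 147 in Col-0. PSAH2, a photosystem I subunit, was 48.6 against 689.8 FPKM, with 94.6 in EtOH and 128 in Col-0, and PSAN, the member nearest to equality, was 205 against 491 FPKM. FNR2 encodes a ferredoxin reductase of the stroma and was 14.8-fold lower, at 6.91 against 102 FPKM. Of the plastid NDH complex, which carries cyclic electron flow, 7 of 10 genes were lower, among them NDH-M (0.423 against 46.9 FPKM), CRR23 (1.03 against 60.9 FPKM), CRR3 (0.513 against 41.3 FPKM) and NDF4 (0.856 against 35.6 FPKM).

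In chlorophyll synthesis, 21 of 23 genes were lower, with a median of -1.70. PORA and POR C had the widest log2 ratios of this list. PORA, the form of etiolated seedlings, was 62.8 FPKM in the library labelled DEX, 1586 in bri1-116, 488 in EtOH and 402 in Col-0, 25.3-fold lower. PORB was 353 FPKM in the library labelled DEX and 1649 in that titled bri1-116, beside 622 in EtOH and 528 in Col-0, 4.67-fold lower, and POR C, the form of green tissue, was 3.40 against 59.4 FPKM, with 11.2 in EtOH and 11.8 in Col-0, 17.5-fold lower. All 3 genes were below EtOH in the library labelled DEX and above Col-0 in that titled bri1-116. Upstream of the PORs, GUN4, a regulator of magnesium chelatase, was 10.9-fold lower (11.5 against 126 FPKM), and CRD1, a cyclase subunit, was 7.79-fold lower (96.1 against 749 FPKM). PCB2, a divinyl reductase, was 2.68 against 42.0 FPKM. Only HEMD and HEMA2 lay within 2-fold, at 9.99 against 19.3 and 19.7 against 22.0 FPKM.

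The Calvin cycle genes were lower in 16 of 18 cases. RBCS1A, a small subunit of Rubisco, was 624 FPKM in the library labelled DEX, 5785 in bri1-116, 2542 in EtOH and 2093 in Col-0. The small subunit gene AT5G38430 was 2.69 FPKM in the library labelled DEX and 179.7 in that titled bri1-116, beside 14.9 in EtOH and 15.2 in Col-0, and it shares much sequence with its neighbours, so reads may be split among them. FBA1, a plastid aldolase, was 21.7-fold lower (6.28 against 137 FPKM), and GAPB, a plastid glyceraldehyde phosphate dehydrogenase, was 12.8-fold lower (19.6 against 251 FPKM). Outside the lists, CA1, a carbonic anhydrase, was 1.65 against 165 FPKM, with 29.1 in EtOH and 45.7 in Col-0, and AT3G63160, a hypothetical protein in the files, was 14.4 FPKM in the library labelled DEX, 658 in bri1-116, 96.8 in EtOH and 71.9 in Col-0. Ribosomal proteins of organellar type were lower in 30 of 34 cases, with a median of -1.86, for example RPL9 (55.5 against 343 FPKM) and RPL12-C (70.3 against 356 FPKM). With the labels exchanged the median would be -0.76, over the members left by the baseline rule applied anew. Cytosolic ribosomal proteins differed less: 25 of 194 were lower and 2 higher (12.9% and 1.03%). Of all genes, 15.3% were lower and 11.8% higher, so lower calls were not more frequent here than among all genes. Still, 186 of the 194 cytosolic genes lay below bri1-116, with a median of -0.66, beside 9549 of all 20813 genes. The cytosolic median was 0.05 for DEX over EtOH and 0.95 for bri1-116 over Col-0.

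The G-box, with the letters CACGTG, is bound by light-signalling factors such as HY5 and the PIFs. It was searched on both strands in the 250 bases before the annotated start of each gene, read from the RefSeq TAIR10.1 genome, and it occurred in 14 of 82 lower genes of the 4 lists (17.1%), in 7.14% of all lower genes, in 6.23% of all higher genes and in 1497 of 20758 such windows overall (7.21%). A match is a description of the letters and not evidence of a bound site. As examples picked by hand after the values were seen, 7 of the 14 windows are shown, from the antenna, the photosystems and chlorophyll synthesis, because these genes were lower together; those of PSAH2, PSBTN, LHCB4.1, AT1G76570, CH1, HCEF1 and PRK are not shown. Sequences run 5′ to 3′ on the strand of the gene with the G-box in capitals.
LHCB2.3 (chr3:10255781-10255860, plus strand, first base of the motif nearest to the gene 88 bases before its start): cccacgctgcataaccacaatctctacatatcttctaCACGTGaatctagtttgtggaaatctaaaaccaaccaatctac
LHCA4 (chr3:17495079-17495158, minus strand, first base of the motif nearest to the gene 88 bases before its start): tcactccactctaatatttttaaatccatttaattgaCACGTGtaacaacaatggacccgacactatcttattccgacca
LHCB6 (chr1:5447962-5448041, minus strand, first base of the motif nearest to the gene 124 bases before its start): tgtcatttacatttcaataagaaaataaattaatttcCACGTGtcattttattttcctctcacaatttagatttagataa
CRD1 (chr3:21076416-21076495, plus strand, first base of the motif nearest to the gene 52 bases before its start): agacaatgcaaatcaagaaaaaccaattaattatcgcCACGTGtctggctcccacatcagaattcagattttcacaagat
PSBQA (chr4:11334260-11334339, plus strand, first base of the motif nearest to the gene 55 bases before its start): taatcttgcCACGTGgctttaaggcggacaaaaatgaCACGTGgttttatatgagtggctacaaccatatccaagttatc
PSBQ-2 (chr4:2673278-2673357, minus strand, first base of the motif nearest to the gene 77 bases before its start): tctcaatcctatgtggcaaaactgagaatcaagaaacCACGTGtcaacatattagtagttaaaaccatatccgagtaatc
PSAE-2 (chr2:8736634-8736713, plus strand, first base of the motif nearest to the gene 63 bases before its start): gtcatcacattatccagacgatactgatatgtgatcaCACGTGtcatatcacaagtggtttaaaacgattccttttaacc

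These genes were lower by 67.4-fold (LHCB2.3), 13.6-fold (LHCA4), 11.5-fold (LHCB6), 7.79-fold (CRD1), 7.04-fold (PSBQA), 6.61-fold (PSBQ-2) and 4.46-fold (PSAE-2). The BR response elements CGTGTG and CGTGCG, both of which can overlap a G-box, occurred in 5.42% and 1.67% of the higher genes, in 4.86% and 1.58% of the lower genes, and in 5.46% and 1.72% of all windows. The auxin response element TGTCTC stood in 10.9% of higher, 11.2% of lower and 10.7% of all windows, and TGTCGG in 4.36%, 4.04% and 4.55%. For TGACG, a site of TGA factors, the shares were 20.8%, 18.8% and 19.2%.

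Light signalling genes were split. Of 22 under the rule, 11 were lower and 1 was higher, and the photoreceptors PHYA (199 against 194 FPKM), PHYB (33.7 against 26.7 FPKM) and CRY1 (46.9 against 44.2 FPKM) and the repressor COP1 (15.8 against 14.5 FPKM) lay within 2-fold. HYH, a homologue of HY5 that promotes photomorphogenesis, was 10.3 FPKM in the library labelled DEX and 74.0 in that titled bri1-116, beside 11.5 in EtOH and 17.7 in Col-0, and HY5 was 45.2 against 79.6 FPKM. The early light-induced genes ELIP1 and ELIP2 were 21.8-fold and 4.08-fold lower. STO, a B-box factor, was 22.0 against 139 FPKM, with 73.1 in EtOH and 116 in Col-0, and PHOT1, the blue-light receptor of phototropism, was 31.4 FPKM in the library labelled DEX, 117 in bri1-116, 143 in EtOH and 142 in Col-0. GLK2, an activator of photosynthesis genes, was 14.7 against 41.9 FPKM, whereas its partner GLK1, listed as GPRI1, was 12.3 against 15.6 FPKM. CRY2, a blue-light receptor, was the higher member, at 181 against 89.1 FPKM.

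Flavonoid genes followed the same direction at low levels: 10 of 13 members under the rule were lower and none was higher. TT4, chalcone synthase, the entry enzyme, was 0.0775 FPKM in the library labelled DEX and 18.6 in that titled bri1-116, beside 2.31 in EtOH and 1.60 in Col-0, and F3H was 0.120 against 3.14 FPKM, with 0.872 in EtOH and 1.20 in Col-0. Summed over the 18 listed genes, the level was 17.3 FPKM in the library labelled DEX and 61.8 in bri1-116.

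BR genes themselves did not form a block. In BR synthesis and inactivation, 4 of 14 genes were lower, 1 was higher, and the median was -0.01. The lower genes encode cytochrome P450 enzymes of synthesis, a step that BR signalling is known to repress through feedback. BR6OX2 was 6.07 FPKM in the library labelled DEX, 129 in bri1-116, 44.1 in EtOH and 42.2 in Col-0, 21.3-fold lower, and BR6OX1 was 9.29-fold lower (0.957 against 8.89 FPKM). CPD was 117 FPKM in the library labelled DEX and 281 in that titled bri1-116, beside 203 in EtOH and 219 in Col-0, 2.41-fold lower, and CYP90D1 was 3.23-fold lower (3.17 against 10.2 FPKM). All 4 were below EtOH in the library labelled DEX and above Col-0 in that titled bri1-116. DWF4, the rate-limiting hydroxylase, lay within 2-fold at 31.1 against 56.2 FPKM, as did DET2 (10.8 against 19.5 FPKM), DWF1 (211 against 220.4 FPKM), ROT3 (36.2 against 27.4 FPKM), STE1 (38.4 against 30.2 FPKM) and DWF5 (66.8 against 55.8 FPKM). Among inactivating enzymes, BAS1 was 2.69-fold higher (10.5 against 3.92 FPKM), and CYP72C1 (21.3 against 12.5 FPKM), BEN1 (24.0 against 13.0 FPKM) and DOGT1 (6.23 against 6.05 FPKM) lay within 2-fold.

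In BR signalling, 15 genes met the rule, 3 were higher and 1 was lower (20% and 6.67%, against 11.8% and 15.3% of all genes). BES1, a factor that activates and represses BR targets, was 33.3 against 94.5 FPKM, with 97.7 in EtOH and 99.5 in Col-0, 2.84-fold lower, while its homologue BZR1 was 20.6 FPKM in the library labelled DEX, 20.3 in bri1-116, 31.4 in EtOH and 30.3 in Col-0. The kinase BIN2, which inhibits both, was 164 against 165 FPKM. The receptor homologues BRL3 and BRL1 were 3.10-fold and 2.76-fold higher (11.3 against 3.63 and 5.22 against 1.89 FPKM), and BRL2 was 8.33 against 11.7 FPKM. The coreceptor BAK1 was 57.8 against 31.9 FPKM, the inhibitor BKI1 20.2 against 15.4 FPKM, and the signalling kinase BSK1 69.7 against 53.2 FPKM. The phosphatase BSU1 counted as the third higher gene at only 0.220 against 0.0295 FPKM and lay near 0 in both libraries, whereas BSL1 was 19.2 against 12.6 FPKM. BEH4 (16.3 against 15.4 FPKM), IBH1, an inhibitor of cell elongation (35.4 against 25.1 FPKM), and BRS1, a carboxypeptidase (4.57 against 2.93 FPKM), lay within 2-fold.

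**Figure D3:**
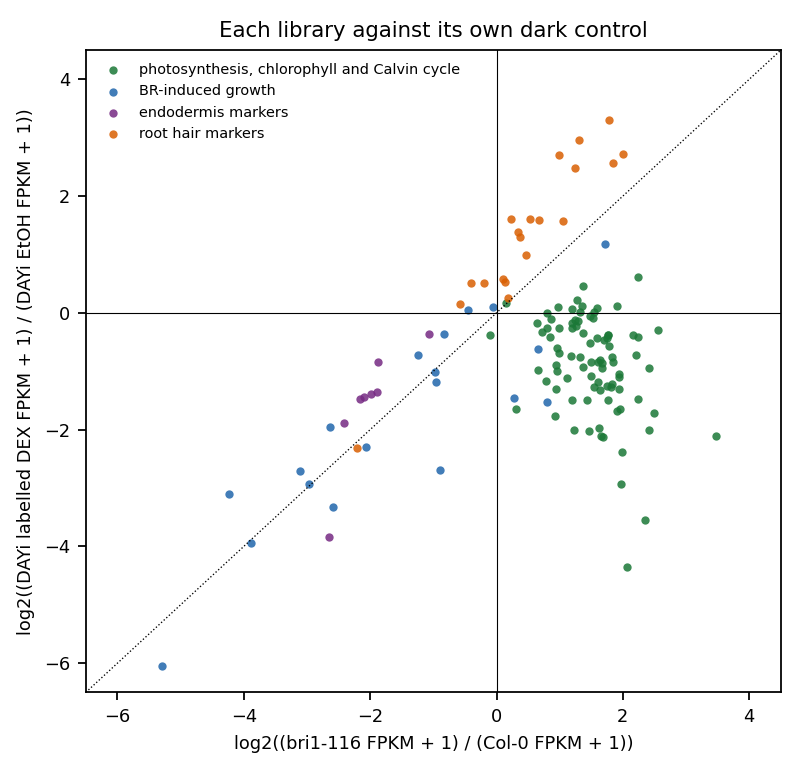
Log2 ratio with 1 FPKM added of the DAYi library labelled DEX to DAYi EtOH (y axis) against that of bri1-116 to Col-0 (x axis) for members of 4 groups of lists, 1 library per condition, with a dotted line at equal ratios. Photosynthesis genes (green) lay nearly all to the right of 0 and mostly below it, BR-induced growth genes (blue) and endodermis markers (violet) mostly lay at lower left near the dotted line, and root hair markers (orange) mostly at upper right.

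Growth genes that BRs induce lay below the own control more often than above it in both libraries. Of 19 under the rule (22 listed), 13 were below EtOH beyond 2-fold in the library labelled DEX and 9 below Col-0 in bri1-116, where 4 lay above Col-0. Over all 20813 genes, these 2-fold counts were 2450 and 1722. In the direct ratio 5 were lower and 1 was higher. XTH17, which remodels xyloglucan in the wall, was 36.2 FPKM in the library labelled DEX and 30.5 in that titled bri1-116, beside 284 in EtOH and 246 in Col-0. PRE1, a helix-loop-helix factor that promotes elongation, was 0.650 against 0.502 FPKM, with 24.4 in EtOH and 21.2 in Col-0, and IAA19, an auxin response repressor, was 1.51 FPKM in the library labelled DEX, 2.27 in bri1-116, 164 in EtOH and 128 in Col-0. These genes were within 2-fold of each other between the libraries compared. EXPA8, a wall-loosening expansin, was higher at 9.85 FPKM in the library labelled DEX and 2.43 in that titled bri1-116, beside 91.9 in EtOH and 63.1 in Col-0. With the labels exchanged, its log2 ratio would turn from 1.66 to -2.56. BEE1 and BEE3, BR-enhanced factors, were lower: BEE1 was 2.58 against 9.70 FPKM, with 22.0 in EtOH and 18.9 in Col-0, and BEE3 was 5.12 FPKM in the library labelled DEX, 22.3 in bri1-116, 15.8 in EtOH and 18.2 in Col-0. AT2G18300 encodes another helix-loop-helix factor of this group and was 11.0 FPKM in the library labelled DEX and 64.7 in that titled bri1-116, beside 33.6 in EtOH and 36.6 in Col-0.

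Other genes at a common, low level were listed by a rule set after seeing the values (a direct log2 ratio within 0.3, the own control crossed beyond 2-fold in the same direction, and at least 50 FPKM in 1 library). All 20 genes with the widest distance from both controls by that rule were below their controls, and several encode wall or cuticle proteins. The arabinogalactan protein FLA2 was 29.6 against 30.8 FPKM, with 329 in EtOH and 252 in Col-0. FLA9 was 89.1 FPKM in the library labelled DEX, 85.5 in bri1-116, 728 in EtOH and 566 in Col-0, and AGP4 was 61.5 FPKM in the library labelled DEX and 53.0 in that titled bri1-116, beside 582 in EtOH and 378 in Col-0. CER1, an enzyme of wax alkane synthesis, was 5.22 against 5.56 FPKM, with 53.7 in EtOH and 32.7 in Col-0, and CYP86A2, a fatty acid hydroxylase of cutin synthesis, was 40.0 FPKM in the library labelled DEX, 34.2 in bri1-116, 244 in EtOH and 189 in Col-0.

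The SAUR family, small auxin-induced proteins that promote expansion, held members of both kinds. Among 54 genes under the rule, 11 exceeded 2-fold upward and 17 downward (median log2 ratio -0.00377), and 25 were below EtOH beyond 2-fold in the library labelled DEX, beside 20 below Col-0 in bri1-116, against 2450 and 1722 of all 20813 genes. AT2G21210 was 0.0787 FPKM in the library labelled DEX and 45.4 in that titled bri1-116, beside 34.9 in EtOH and 26.0 in Col-0, 577-fold lower, and AT3G53250 was 0.229 against 17.8 FPKM, with 57.0 in EtOH and 55.7 in Col-0. In contrast, AT5G18020 and AT5G18030 were at 1.04 against 1.18 and 1.66 against 1.45 FPKM in the libraries compared, and at 50.9 and 51.5 FPKM in EtOH. AT3G61900 had the highest log2 ratio of the family, at 24.9 against 3.07 FPKM. Such neighbouring family members share sequence, so reads may be split among them.

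PIF and shade genes were lower in 7 of 13 cases. PIF4, which drives elongation, was 2.13 FPKM in the library labelled DEX, 17.4 in bri1-116, 9.91 in EtOH and 15.7 in Col-0, PIF3 was 26.8 against 58.6 FPKM, and PIF1, listed as PIL5, was 9.24 against 22.8 FPKM. The levels in bri1-116 were near those in Col-0 for PIF4, PIF3 (59.6 FPKM) and HB4 (3.08 against 9.11 FPKM, 9.07 in Col-0). Of Aux/IAA and GH3 genes, 7 of 30 were lower and 3 higher (23.3% and 10%, against 15.3% and 11.8% of all genes). The GH3 auxin-conjugating enzymes DFL1 (3.48 against 33.1 FPKM), GH3.3 (1.12 against 9.16 FPKM) and WES1 (18.3 against 75.6 FPKM) were lower, and BRU6 (41.5 against 11.0 FPKM) was higher. In the XTH family 7 of 21 genes were lower and 2 higher. XTH20 was 0.0689 FPKM in the library labelled DEX and 6.83 in that titled bri1-116, beside 4.59 in EtOH and 5.93 in Col-0, and XTH7 was 1.41 against 15.9 FPKM, with 48.6 in EtOH and 64.2 in Col-0. Expansins were higher in 5 and lower in 4 of 21 cases, with EXPA6 at 15.7 against 49.7 FPKM.

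**Figure D4:**
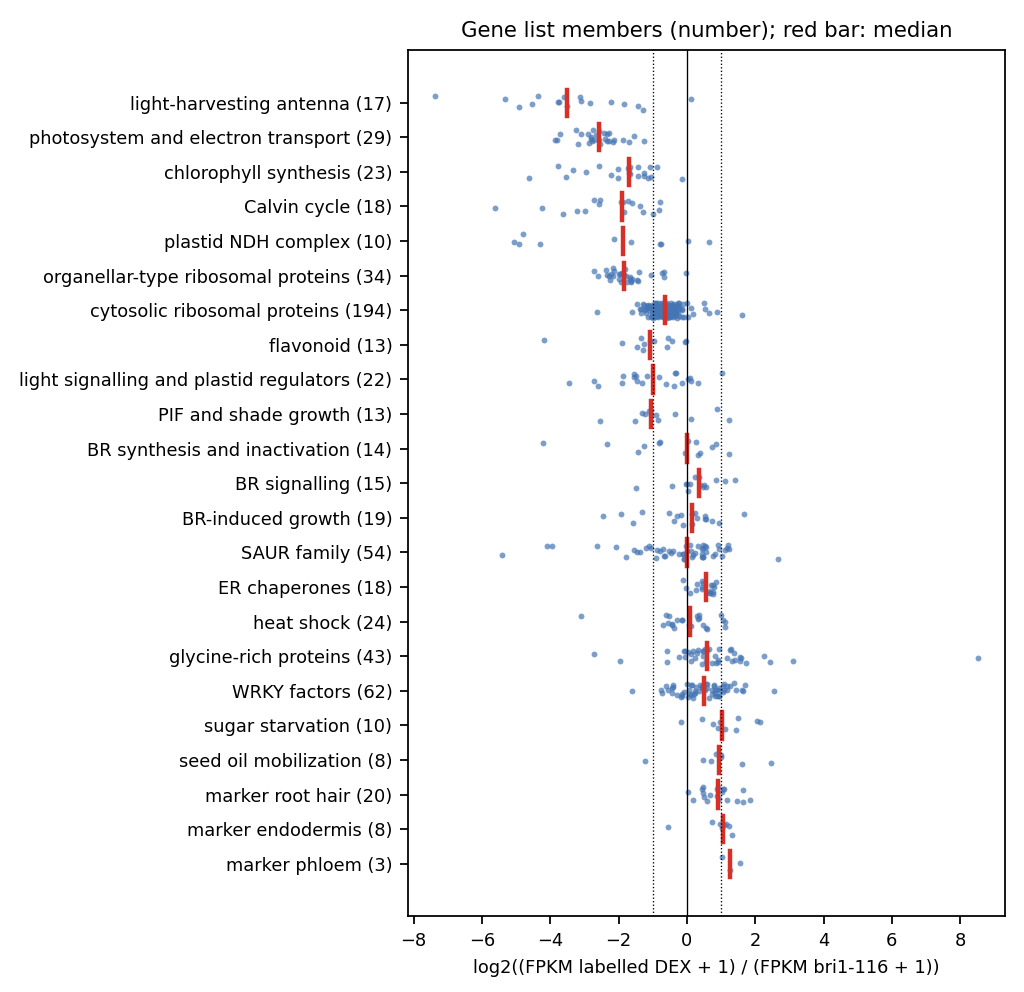
Log2 ratio with 1 FPKM added of the DAYi library labelled DEX to bri1-116 (x axis) for every member under the baseline rule (blue points, number in parentheses) of 23 gene lists, with the list median as a red bar and dotted lines at 1 and -1. The photosynthesis lists lay to the left, BR and SAUR lists around 0, and the sugar starvation, root hair, endodermis and phloem lists to the right.

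In the 12 genes with the highest ratios, the library labelled DEX stood above all 3 other libraries. AT2G05510, a glycine-rich protein (chr2:2015706-2016749), was 6158 FPKM in the library labelled DEX, 15.9 in bri1-116, 17.2 in EtOH and 33.5 in Col-0, 388-fold higher. CYS2, a cystatin that inhibits cysteine proteases, was 8264 FPKM in the library labelled DEX and 63.6 in that titled bri1-116, beside 90.1 in EtOH and 56.5 in Col-0, 129.9-fold higher. BGLU45, a glucosidase of monolignol glucosides, was 388 against 1.38 FPKM, with 2.16 in EtOH and 2.69 in Col-0. CYP94B3, which oxidizes the jasmonate-isoleucine hormone, was 294 FPKM in the library labelled DEX, 1.69 in bri1-116, 5.30 in EtOH and 5.50 in Col-0. For pEARLI 1, a lipid transfer-like protein, the values were 419.9 FPKM in the library labelled DEX and 0.666 in bri1-116, with 4.43 in EtOH and 6.77 in Col-0. The remaining leading genes were AT4G33720 (166 against 0.599 FPKM), AT1G64405 (161 against 2.55), AT5G05320 (277 against 5.77), AT2G39510 (41.7 against 0.0451), HB26, a homeobox factor (47.6 against 0.207), AT3G50800 (126 against 3.22) and UBC17, a ubiquitin-conjugating enzyme (710.2 against 22.9). Their baseline ratios lay between 0.514 for AT2G05510 and 1.77 for AT1G64405.

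In the 12 genes with the lowest ratios, the library labelled DEX lay below EtOH and that titled bri1-116 above Col-0. The widest log2 ratio was that of AT5G22580, a stress-responsive barrel protein by the description in the files, which was 0.271 FPKM in the library labelled DEX and 255 in that titled bri1-116, beside 104 in EtOH and 97.4 in Col-0, 944-fold lower. Besides the plastid genes, this set held the SAUR gene AT2G21210, the cold gene KIN2, the defensin PDF1.5 and the lipid transfer gene AT4G22490, whose values are given with their families.

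**Figure D5:**
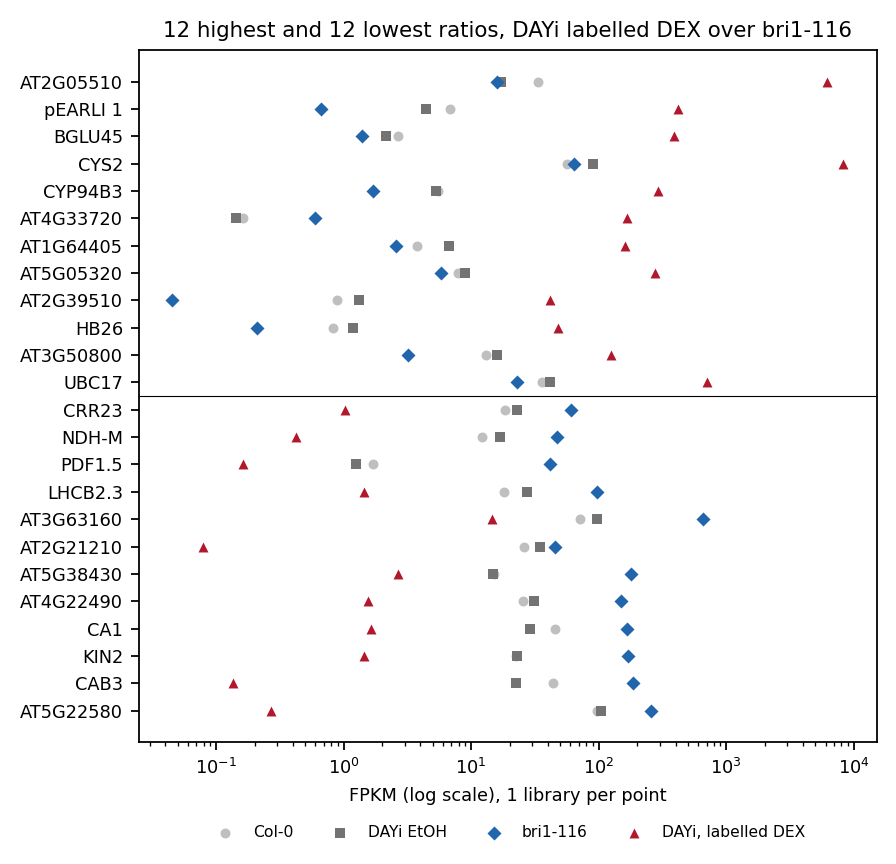
FPKM (x axis, log scale) of the 12 genes with the highest and the 12 with the lowest ratio of the DAYi library labelled DEX to bri1-116 in each of the 4 dark libraries, 1 library per point. Controls (grey) lay together by the baseline rule; for the upper 12 genes the DEX point lay above the 3 others, whereas for the lower 12 the DEX point lay below EtOH and the bri1-116 point above Col-0.

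Neighbours of the leading genes lay nearer to equality. Next to AT2G05510, GRP-3 was 908 against 366 FPKM and AT2G05540 was 938 against 316 FPKM, but AT2G05530 was listed at 0 against 1.44 FPKM. Next to pEARLI 1, AZI1, a gene of systemic resistance, was 521 against 135 FPKM. On its other side AT4G12490 and AT4G12500 were under 1 FPKM in all 4 libraries. Further along, AT4G12545 and AIR1 were lower, at 11.9 against 75.2 and 9.47 against 195 FPKM. As a family, glycine-rich proteins were higher in 19 and lower in 2 of 43 cases, against 11.8% and 15.3% of all genes. DOT1, a gene required for vein patterning, was 1459 against 269 FPKM, with 353 in EtOH and 420.4 in Col-0, and AT5G46730 was 55.7 FPKM in the library labelled DEX, 5.52 in bri1-116, 15.0 in EtOH and 26.2 in Col-0. These families hold similar sequences, and reads may be split among copies.

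Lipid transfer proteins showed both extremes. Of 53 genes under the rule, 8 were higher and 16 lower (15.1% and 30.2%, against 11.8% and 15.3% of all genes). Of 115 entries, 51 were at 0 in 1 or both libraries, beside 4753 of all 26987 entries. Several genes in a run on chromosome 4 were near or at 0 in the library labelled DEX, and some of them were also low in both controls. AT4G22490 was 1.56 FPKM in the library labelled DEX and 148 in that titled bri1-116, beside 31.3 in EtOH and 25.5 in Col-0. AT4G22517 was listed at 0 in the library labelled DEX and at 131 FPKM in bri1-116, with 2.13 in EtOH and 4.13 in Col-0. AT4G22510 was at 0 and 54.0 FPKM, with 1.10 in EtOH and 1.58 in Col-0. AT4G22485 stood at 0 and 14.4 FPKM, with 0.428 in EtOH and 0.803 in Col-0, while AT4G22520 at the end of the run was 11.1 against 54.9 FPKM. At its other end AT4G22460, which failed the baseline rule, was 2.38 against 2.53 FPKM, with 39.6 in EtOH and 19.6 in Col-0. AT4G22510, AT4G22517 and AT4G22513, which failed the baseline rule, are given the same coordinates in the files (chr4:11854809-11857313). DELTA-TIP and NDF4 also share theirs (chr3:5505404-5508414). Such coordinates do not locate the single gene, and how reads were divided within them was not examined. Also lower was AIR1, an auxin-induced gene of root cultures from the run of pEARLI 1, at 9.47 against 195 FPKM, with 17.7 in EtOH and 28.3 in Col-0. In contrast, AT3G18280 was higher at 1483 FPKM in the library labelled DEX, 133 in bri1-116, 183 in EtOH and 131 in Col-0. In the opposite direction, AT4G23271, AT5G12236 and FT, the flowering signal, were listed at 0 in bri1-116 and at 47.9, 8.26 and 3.58 FPKM in the library labelled DEX.

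Genes of carbon shortage and lipid reserves leaned to the higher side. For sugar starvation, 5 of 10 genes were higher, none was lower, and the median was 1.03. With the labels exchanged the median would be 0.21, over the members left by the baseline rule applied anew. DIN10, a raffinose synthase-like protein, was 445 FPKM in the library labelled DEX and 107 in that titled bri1-116, beside 202 in EtOH and 244 in Col-0. DIN2, a glucosidase, was 155 against 34.6 FPKM, with 52.5 in EtOH and 101 in Col-0, with a baseline ratio of 0.522, and ASN1, an asparagine synthetase of darkened tissue, was 326 FPKM in the library labelled DEX, 114 in bri1-116, 214 in EtOH and 282 in Col-0. Of 8 genes of seed oil use, 4 were higher and 1 lower. SDP1, the lipase that opens oil reserves, was 107 FPKM in the library labelled DEX and 18.5 in that titled bri1-116, beside 31.8 in EtOH and 33.3 in Col-0, and PCK1, the entry to gluconeogenesis, was 1223 against 403 FPKM, with 408 in EtOH and 439 in Col-0, whereas MLS, malate synthase, was lower at 4.14 against 10.9 FPKM. Seed storage transcripts were close to 0, with sums over 12 genes of 9.52 FPKM in the library labelled DEX and 15.9 in bri1-116.

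Nitrogen genes lay on both sides, with 5 of 15 higher and 5 lower. NIA1, a nitrate reductase, was 7.72 FPKM in the library labelled DEX, 196 in bri1-116, 104 in EtOH and 124 in Col-0, 25.3-fold lower, while NIA2 was 238 against 379 FPKM. GS2, the plastid glutamine synthetase, was 3.74-fold lower (142 against 533 FPKM), whereas the cytosolic forms GSR 1 and GSR2 were 4.26-fold and 4.11-fold higher (233 against 54.7 and 1901 against 462 FPKM). NRT1.1, a nitrate transceptor, was 104 against 29.6 FPKM. Of 16 iron genes, 6 were higher and 1 was lower. The nicotianamine synthases NAS2 (54.4 against 8.48 FPKM) and NAS1 (26.4 against 7.96 FPKM) and the ferritin FER1 (406 against 117 FPKM) were higher, and MYB10 (15.3 against 46.5 FPKM) was lower.

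Stress and defence genes were mixed. WRKY factors were higher in 20 and lower in 4 of 62 cases (32.3% and 6.45%), against 11.8% and 15.3% of all genes. WRKY18, a defence regulator, was 52.7 FPKM in the library labelled DEX and 8.21 in that titled bri1-116, beside 9.75 in EtOH and 9.27 in Col-0. Of jasmonate genes 5 of 19 were higher and 4 lower (26.3% and 21.1%), with the repressor JAZ10 at 41.1 against 9.44 FPKM. Among 9 pathogenesis-related genes, 4 were higher, for example PAD3 of camalexin synthesis (34.4 against 13.7 FPKM), and 1 was lower. Outside that list, the defensin PDF1.5 was 0.162 against 41.8 FPKM, with 1.26 in EtOH and 1.69 in Col-0. Cold and abscisic acid genes ran in both directions: the dehydrins COR47 (951 FPKM in the library labelled DEX, 88.6 in bri1-116, 463 in EtOH and 451 in Col-0) and ERD10 (106 against 13.3 FPKM) were higher, and KIN2 was lower (1.44 FPKM in the library labelled DEX and 168 in that titled bri1-116, beside 22.9 in EtOH and 22.4 in Col-0). Its neighbour KIN1 is a near copy and was 0.116 against 11.0 FPKM. Class III peroxidases were higher in 15 and lower in 10 of 61 cases (24.6% and 16.4%), with AT1G49570 at 327 against 23.3 FPKM and AT2G38390 at 0.241 against 16.7 FPKM. The most abundant higher one, AT2G37130, was 1141 against 241 FPKM, with 2155 in EtOH and 1338 in Col-0.

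Because DAY is a chaperone-like protein, folding genes were examined. None of 18 endoplasmic reticulum chaperone genes passed 2-fold, although 16 lay above bri1-116 with a median of 0.57. Of all 20813 genes, 11264 lay above bri1-116. The Hsp70 chaperones BIP1 and BIP2 were 89.8 against 52.1 and 66.8 against 38.6 FPKM, and PDIL1-4, a disulfide isomerase, 136 against 74.8 FPKM. Of 24 heat shock genes, 9 were higher and 2 lower. Apart from HSF4, the higher ones encode small heat shock proteins and lay under 2 FPKM in both libraries, such as HSP17.6A (1.39 against 0.160 FPKM) and AT1G53540 (1.66 against 0.234 FPKM), while the regulator HSF4 was 94.2 FPKM in the library labelled DEX, 42.9 in bri1-116, 68.1 in EtOH and 66.0 in Col-0. ATHSP22.0, a small heat shock protein, was lower at 0.447 FPKM in the library labelled DEX and 11.5 in that titled bri1-116, beside 2.50 in EtOH and 2.03 in Col-0. The core of the heat shock element, GAANNTTC, was present in 7 of 24 windows of these genes and in 9.43% of all windows.

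Cell type markers differed between the libraries, and their part in the results above was not tested. Root hair genes were higher in 14 of 20 cases, with none lower, and all 20 lay above bri1-116, as did 11264 of all 20813 genes. The sum over 22 listed genes was 150.0 FPKM in the library labelled DEX, 62.3 in bri1-116, 50.5 in EtOH and 48.1 in Col-0. EXPA7, a root hair expansin, was 11.1 against 2.85 FPKM, with 0.873 in EtOH and 0.933 in Col-0. RSL2 and RHD6, factors of hair growth and fate, were 3.08 against 0.470 and 4.17 against 1.41 FPKM, and RHS19, a peroxidase gene, was 18.3 against 5.22 FPKM.

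Endodermis markers were higher in 6 of 8 cases, but below the own control in all 8 cases in both libraries. They also lay higher in EtOH than in Col-0 (median log2 baseline 0.47), and after division by the baseline 1 of 8 was higher, 1 was lower, and the list median fell to 0.62. AT2G36100, which encodes CASP1 of the Casparian strip, was 77.6 FPKM in the library labelled DEX, 36.0 in bri1-116, 200.2 in EtOH and 137 in Col-0, and AT2G28670, the barrier protein ESB1, was 94.6 FPKM in the library labelled DEX and 37.3 in that titled bri1-116, beside 169.8 in EtOH and 140.0 in Col-0. With the labels exchanged, the log2 ratios would turn to -0.81 for AT2G36100 and -0.56 for AT2G28670. The sums over 8 genes were 317, 153, 928 and 665 FPKM in DEX, bri1-116, EtOH and Col-0. Xylem markers were higher in 1 of 10 cases (XCP1, a vessel protease, 76.1 against 33.2 FPKM), and the wall synthase IRX1 was 6.12 against 4.67 FPKM. All 3 listed phloem markers were higher, with the sucrose carrier SUC2 at 157 against 52.8 FPKM, with 59.5 in EtOH and 59.3 in Col-0. Of 6 listed genes of dividing cells, 3 were found as single-locus entries. All 3 met the rule and lay within 2-fold, with the cytokinesis syntaxin SYP111 at 24.7 against 13.1 FPKM.

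Stomatal lineage genes lay on both sides, with 2 of 8 higher and 3 lower. TMM, a receptor-like protein of early lineage cells, was 95.3 FPKM in the library labelled DEX, 4.81 in bri1-116, 4.81 in EtOH and 5.92 in Col-0, 19.8-fold higher, and SPCH, the factor that starts the lineage, was 17.7 FPKM in the library labelled DEX and 1.04 in that titled bri1-116, beside 0.745 in EtOH and 1.18 in Col-0. The later genes FMA (1.93 against 4.55 FPKM) and EPF1 (1.15 against 4.98 FPKM) were lower, and MUTE was 0.442 against 0.689 FPKM. Cuticle genes lay within 2-fold in all but 1 of 8 cases. KCS6, a wax elongase, was 169 against 122 FPKM, with 483 in EtOH and 393 in Col-0, and the lipid transfer gene LP1 was the lower one (73.3 against 387 FPKM). Aquaporins were higher in 1 and lower in 1 of 14 cases. BETA-TIP, of protein storage vacuoles, was 130.3 FPKM in the library labelled DEX, 4.82 in bri1-116, 19.6 in EtOH and 22.9 in Col-0, and DELTA-TIP, of the central vacuole, was 149 FPKM in the library labelled DEX and 509 in that titled bri1-116, beside 1344 in EtOH and 1100 in Col-0. Lignin genes were higher in 3 of 14 cases (21.4%, against 11.8% of all genes), among them BGLU46 (95.4 against 18.0 FPKM) and CCoAOMT1, a methyltransferase (1247 against 445 FPKM). Cysteine proteases and cystatins were higher in 4 and lower in 1 of 16 cases (25% and 6.25%), with the vacuolar protease RD19 at 1250 against 533 FPKM.

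The baseline limit of 2-fold separated genes with similar values. Among genes of 10 FPKM or more in all 4 libraries, TUB1 had a baseline ratio of 1.98 and was kept, and AT2G47200 was kept at 1.99, whereas AT5G18661 at 2.04 and AT1G14642 at 0.495 were left out. The entry with the largest share of all FPKM, AT2G01021, also failed the rule and was 329741 against 129801 FPKM, with 152722 in EtOH and 41978 in Col-0.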

How the data were processed

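The authors deposited FPKM values per gene that, by the submitters' processing notes, came from CASAVA 1.8.2, TopHat2 2.0.13 and Cuffdiff 2.2.0 on build TAIR10. Neither the annotation release nor the strand setting is given in the sources used here; the authors' own fold changes and p-values, and the 4 light-grown libraries, were not used. The 2 dark tables were joined on their row identifier (26987 entries, 192 of them without a single locus tag). The direct ratio and the baseline ratio were computed for each gene with Python 3.11.15, pandas 2.3.3 and numpy 2.4.6. Counts used ratios without a pseudocount, and log2 values of single genes and lists had 1 FPKM added to both sides. With 1 library per side, no test was run. Genes named were the 12 highest and 12 lowest log2 ratios at 10 FPKM or more in 1 of the 2 libraries, up to 4 members of each of 41 lists, up to 3 genes a side at 0 in 1 library, and all POR and BR genes; others named beside them were chosen after their values were seen. The members, lists and rules were chosen with earlier results of these data known. Coordinates are those of the files, with 1 added to the start; promoter windows came from RefSeq TAIR10.1, whose gene models overlapped 26303 of 26307 matched entries on the same chromosome. Depth is unknown: a search for whole-fragment steps in low FPKM values recovered 2 of 4 simulated scales and gave the double for the others, so it was not applied. How often the 2-fold calls would recur in further libraries was not tested, since each condition had 1 library. Scaling, low-value filters, the baseline limit and exchanged labels were tried as alternatives.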

Additional observations from a re-analysis of the deposited data

How the results depend on the processing

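The counts of 2460 higher and 3174 lower genes stayed within 1.5 times under 1 FPKM or more in 1 of the 2 libraries, a baseline within 1.5-fold, no baseline rule, division by the baseline, both rescalings and counting genes at 0. With 1 FPKM added before the ratio, 1479 genes were higher and 2124 lower, the latter still within 1.5 times. With 5 FPKM or more in 1 library, 1497 were higher and 2044 lower, and beyond 4-fold, 567 and 1074. Reading the bri1-116 and Col-0 labels as exchanged gave 1426 higher and 1279 lower genes. The baseline rule was then applied anew, with the library titled bri1-116 as the control, so these counts are out of another set of genes. List medians in the exchanged reading are therefore over other members than the main medians, and a change between them mixes both differences. The endodermis markers had no member left. From the main to the exchanged reading, the median log2 ratio of the antenna list went from -3.50 to 0.0128 and that of cytosolic ribosomal proteins from -0.66 to 0.26. Other medians that changed were those of the photosystems (-2.57 to -1.21), chlorophyll synthesis (-1.70 to -0.27), the Calvin cycle (-1.91 to -0.21), light signalling (-0.99 to -0.48), BR signalling (0.37 to -0.24), BR-induced growth (0.14 to -1.08), expansins (0.42 to -0.15), xylem (0.21 to -0.37), cuticle (-0.20 to -0.76), sugar starvation (1.03 to 0.21), cold and abscisic acid (0.43 to -0.40), organellar-type ribosomal proteins (-1.86 to -0.76) and the NDH complex (-1.88 to -0.35). Other settings moved 6 list medians: without a pseudocount, flavonoid to -1.76, seed storage to -2.07 and the NDH complex to -3.45; with 5 FPKM or more, the stomatal lineage to 3.20 and pathogenesis-related genes to 1.11 (1.06 with 1 FPKM or more); and after rescaling to a median of 0, nitrogen genes to -0.42. The causes were not tested. With the labels exchanged and no baseline rule, the log2 ratios of ELIP2, EXPA8, HSP17.6A, AT2G28670, AT3G11550, AT2G27370, AT2G36100 and BSU1 became 0.21, -2.56, -0.24, -0.56, -0.93, -0.95, -0.81 and -0.15. Division by the baseline, with the labels as titled, took the log2 ratio of BSU1 to -0.0137. Rescaling to a median of 0 over genes of 5 FPKM or more in both libraries shifted ratios by 0.14 on the log2 scale. No paired analysis was possible because each condition had 1 library. No replicate could be left out for the same reason. Depth is unknown, so the counting error of low levels cannot be given, and genes at 0 in the library labelled DEX or in bri1-116 gave no ratio.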
